A study of Mus musculus with 6 samples.

Results

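Guidance cues are cell-surface and secreted proteins best known for steering growing axons, and most of them also act on vessels, leukocytes and tumor cells. Semaphorins are read by plexins, with neuropilins as co-receptors for the secreted class-3 semaphorins, and plexins act on small GTPases and the cytoskeleton. Slits bind ROBO receptors, netrins bind UNC5 receptors and DCC, and membrane-bound ephrins bind Eph receptor tyrosine kinases on a touching cell, with signals running both ways. The members described here were all rows of the deposited expression table whose gene symbol belongs to one of these families: semaphorins of classes 3 to 7, plexins, neuropilins, Eph receptors, ephrins, UNC5, ROBO and SLIT. This rule uses names only and took 64 of the 22880 genes, of which 20 were semaphorins, 9 plexins, 2 neuropilins, 14 Eph receptors, 8 ephrins, 4 UNC5 receptors, 4 ROBO receptors and 3 SLIT ligands.

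RNA was measured in MC-38GFP cells, a mouse colon adenocarcinoma line carrying green fluorescent protein, in which HIF-1α, the oxygen-regulated subunit of the hypoxia-inducible factor, had been knocked down (HIF-1α-KD) or which had been mock-transduced (Mock). Cells of both groups carried the lentiviral pLKO.1-puro vector, had not been passaged in vivo, and were grown as orthotopic tumors in the cecum wall of C57BL/6J mice, from which GFP-positive cells without CD45 and CD31 were sorted. Each group had 3 libraries, and no source used here says whether a library was 1 tumor or 1 animal, so the p-values measure the spread between these libraries, which may be technical. Animal age was not given, and the sources do not say whether the knockdown line was a single clone.

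Between 19846013 and 30809895 reads per library fell on genes. Hif1a, the knockdown target, had normalized counts (reads on a gene divided by 1 scaling factor per library) of 6914, 5424 and 4945 in Mock against 697.3, 3142 and 1928 in HIF-1α-KD cells. All 3 knockdown libraries were below all 3 Mock libraries, with the lowest level in HIF-1α-KD library 1, and the log2 fold change was -1.82 (SE 0.46, limma adjusted p = 0.219). The defining genes of an intestinal epithelium were scarce for a colon tumor line: 11 of 12 markers averaged under 1 FPKM (reads scaled to transcript length and library total), among them Epcam, Cdh1 and Krt8, whereas the fibroblast gene Dcn averaged 552 FPKM. The vessel gene Pecam1, which encodes CD31, averaged 0.834 FPKM.

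Of the 64 guidance genes, 43 had enough reads to be tested and 21 did not. The tested genes were compared between groups with limma on log2(normalized count + 1), fitted on all 12014 genes that passed the same filter, and every adjusted p is over those 12014 genes. No guidance gene passed an adjusted p of 0.05 in either direction by limma, where 0.00832% of all genes were higher in HIF-1α-KD cells and 0.383% lower. The smallest adjusted p among them was 0.157, for Sema3f. At an unadjusted p under 0.05, 13 were higher and 3 lower (30.2% and 6.98% of 43), against 7.04% and 5.69% of all genes. At an adjusted p of 0.05, edgeR on the recovered reads called 0 guidance genes higher and 0 lower, against 0.0% and 0.391% of all genes. DESeq2 called 4 higher and 2 lower, against 0.799% and 1.56% of all genes.

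A looser criterion, an unadjusted p under 0.05 together with a change of at least 1.5-fold, was met upward by 10 guidance genes (23.3%) and downward by 2 (4.65%). The background was 4.02% and 3.46% of all genes. The 10 were the plexins Plxna1, Plxna2, Plxnb1 and Plxnd1, the semaphorins Sema4a and Sema6a, the netrin receptor Unc5b, the ligand Slit2, the ephrin Efnb1 and its receptor Ephb3. The pair on the low side was the secreted semaphorin Sema3f and the receptor Epha7. Sema6a and Epha7 passed the filter on reads only through the group in which they were high, and without them 9 members met the criterion upward and 1 downward. The 3 HIF-1α-KD libraries lay wholly above the 3 Mock libraries for 13 members (30.2%) and wholly below for 4 (9.30%), against 10.4% and 8.75% of all genes. For a single gene, an exact permutation test of 3 against 3 libraries cannot go below p = 0.1. The median log2 fold change was 0.38 over the 43 tested members and 0.02 over all genes. Positive values were found for 29 members (67.4%), against 52.7% of all genes. In bulk RNA of sorted cells, a change in the share of cells that express a gene and a change in RNA per cell cannot be told apart.

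**Figure D1:**
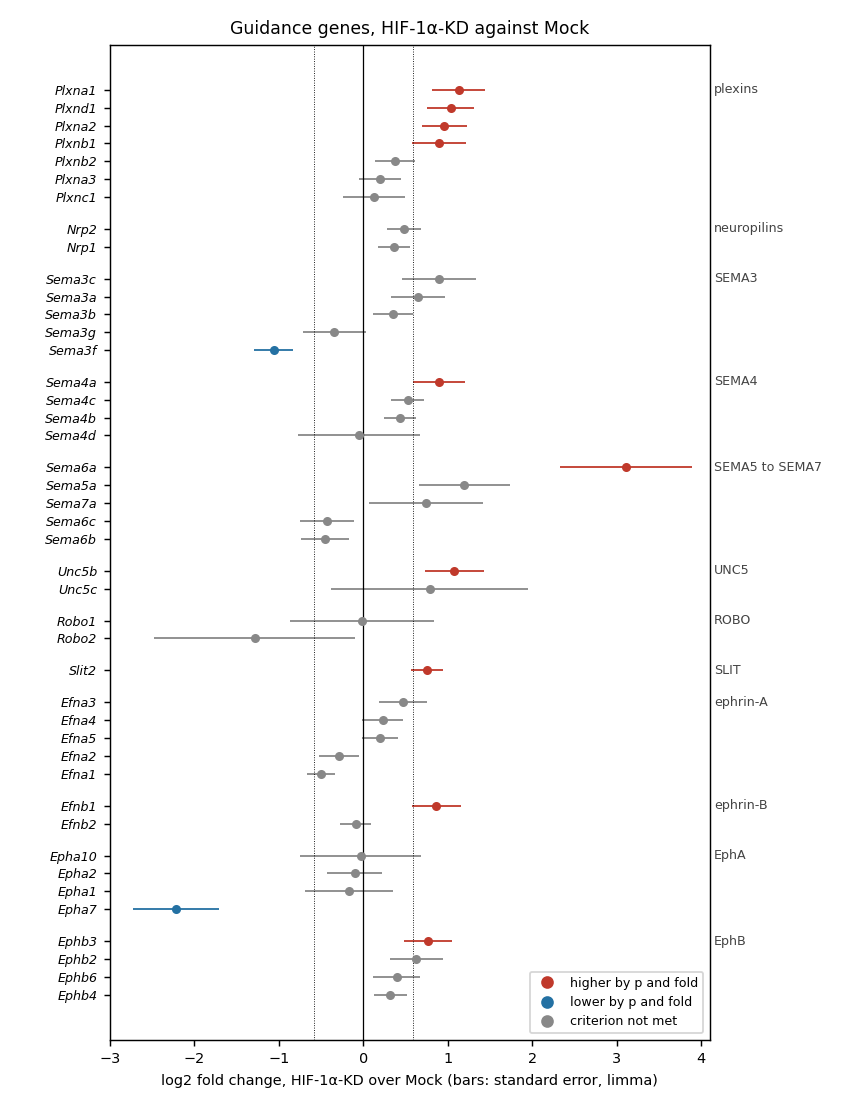
Log2 fold change (HIF-1α-KD over Mock, horizontal axis) of the 43 tested guidance genes, grouped by role, with bars of 1 standard error from limma and dotted lines at a 1.5-fold change. Red marks the 10 genes higher and blue the 2 lower by the criterion of p and fold. The red points include 4 of the 7 tested plexins, and Sema6a (3.11) and Epha7 (-2.21) lie farthest out.

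Promoters were read because HIF-1 binds the motif ACGTG or GCGTG. Of the 43 tested members, 39 had a RefSeq start in the promoter table (GRCm38.p6), and 23 of these (59.0%) held the motif on either strand in the 250 bases before a start. The share was 62.1% of 9068 tested genes with an entry, 55.9% of those higher and 70.4% of those lower by the criterion, and 38.6% of all 32851 windows of this length. A palindromic CACGTG counts once on each strand. Of the 8 members higher by the criterion with an entry, 5 held the motif (62.5%): Plxnd1, Plxna2, Unc5b, Efnb1 and Ephb3. Plxnd1 held 4 copies, which begin 86, 73, 61 and 41 bases before its start. The 100 bases before the start are given for 3 of those 5, and for Slit2 and Epha7, in whose windows the motif was not found, each 5′ to 3′ on the strand of the gene with the motif in capitals.
Plxnd1 (chr6:115995006-115995105, minus strand): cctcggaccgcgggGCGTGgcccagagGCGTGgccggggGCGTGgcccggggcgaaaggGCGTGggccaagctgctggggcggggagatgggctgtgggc
Unc5b (chr10:60831582-60831681, minus strand): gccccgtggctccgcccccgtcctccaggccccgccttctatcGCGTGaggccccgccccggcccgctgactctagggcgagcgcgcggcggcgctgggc
Efnb1 (chrX:99135961-99136060, plus strand): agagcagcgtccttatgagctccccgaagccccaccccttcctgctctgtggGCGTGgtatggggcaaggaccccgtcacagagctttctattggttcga
Slit2 (chr5:47983055-47983154, plus strand): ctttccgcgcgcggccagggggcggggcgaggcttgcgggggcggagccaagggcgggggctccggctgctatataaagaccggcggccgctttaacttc
Epha7 (chr4:28813031-28813130, plus strand): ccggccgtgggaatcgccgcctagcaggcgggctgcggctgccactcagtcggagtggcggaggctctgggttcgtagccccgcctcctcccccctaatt
The copies in Plxnd1 all lie in the 100 bases shown, the single copy in Unc5b begins 57 bases and that in Efnb1 48 bases before it. The motif was thus no more frequent among the members than among all tested genes with an entry, and a match in these letters is not a measured binding site.

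On a per-length scale the families were unevenly expressed. Of the 64 genes, 37 averaged at least 1 FPKM over the 6 libraries. Plxnb2, a plexin that binds class-4 semaphorins, had the highest level at 143 FPKM, followed by the neuropilin Nrp2 at 55.7 FPKM and the ephrin receptor Epha2 at 52.4 FPKM. Slit2 averaged 35.5 FPKM, the ephrin Efnb2 30.2, Unc5b 27.0, Ephb4 26.2, Sema3a 23.6, Sema4c 15.2, Efna1 15.0 and Sema7a 13.4 FPKM, each the highest of its role. Robo1, the highest ROBO receptor, averaged only 1.81 FPKM. These levels depend on the length used: per longest annotated transcript, Plxnb2 had 56.5, Nrp2 47.0, Epha2 19.8, Slit2 11.3, Efnb2 15.7, Sema3a 10.1 and Sema4c 8.54 FPKM, while Unc5b (26.9) and Ephb4 (24.2) hardly moved. By that second length, Nrp1, the other neuropilin, had 42.0 FPKM in place of 25.9 FPKM.

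The 21 untested members gave few reads or none. Their highest mean level was 0.208 FPKM, for Sema3d. Sema3e, the class-3 semaphorin that binds Plxnd1 directly, and the receptors Epha6 and Ephb1 had no read in any library, which at 3 reads per library allows at most 0.0326 FPKM for Sema3e, 0.0767 for Epha6 and 0.037 for Ephb1 in the shallowest library, for counting error alone. Others in this set were Plxna4 and Plxnb3, Robo3 and Robo4, Slit1 and Slit3, Unc5a and Unc5d, Epha3, Epha4, Epha5 and Epha8, Efnb3, Sema4f, Sema4g, Sema5b and Sema6d. The set thus held 5 of 9 EphA receptors and 1 of 5 EphB receptors, and none of the 5 ephrin-A genes.

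**Figure D2:**
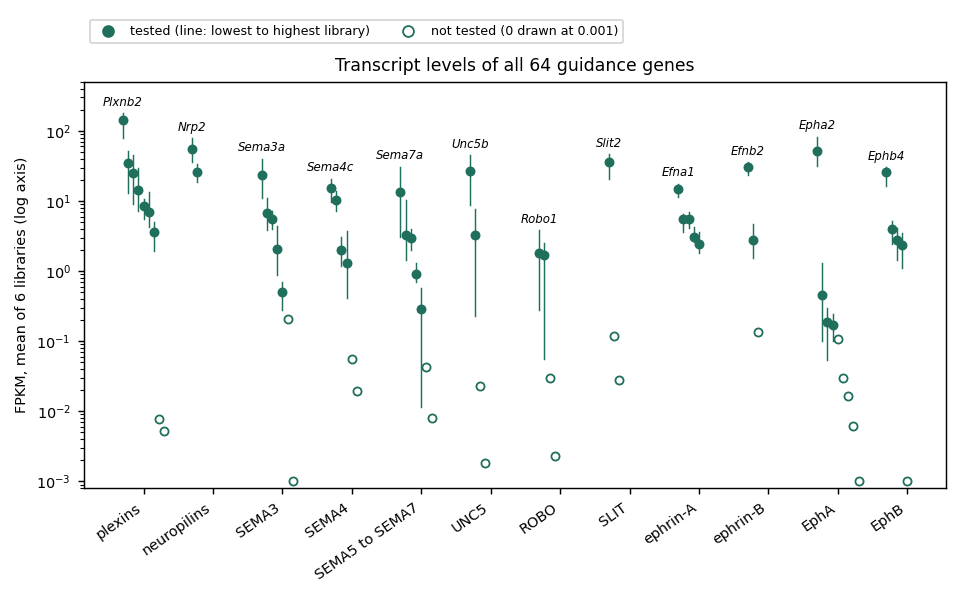
Mean FPKM over the 6 libraries (log axis) of all 64 guidance genes by role; filled points are tested genes with a line from the lowest to the highest library, open points untested genes, and genes without reads are drawn at 0.001. The named gene is the highest of its role, with Plxnb2 at 143 FPKM and Robo1 at 1.81 FPKM as the extremes of these.

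The plexins were the role with the most members on the high side. All 7 tested plexins had positive log2 fold changes with a median of 0.90, except that Plxna3 turned negative without Mock library 1 and Plxnc1 without Mock library 3 or HIF-1α-KD library 3. The median was 0.53 without HIF-1α-KD library 1 and 0.68 without Mock library 1. The criterion of p and fold was met by 4 of the 7 (57.1%), and upward by 4.02% of all genes. The family summed to 123.4, 228.0 and 215.1 FPKM in Mock against 320.7, 279.5 and 255.6 FPKM in HIF-1α-KD cells, so the groups did not overlap, and Mock library 1 was far below the other Mock libraries. Without that library the ratio of the mean sums fell from 1.51 to 1.29. Most of the sum came from Plxnb2, which did not meet the criterion. It had 124 of a mean of 189 FPKM in Mock and 162 of 285 FPKM in HIF-1α-KD cells.

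Plxna1, a receptor for class-3 semaphorins bound to neuropilins (chr6:89316314-89362620, GRCm38), had normalized counts (the unit for all members below) of 1699, 3206 and 3865 in Mock against 8365, 5498 and 4778 in HIF-1α-KD cells. No knockdown library reached down to the highest Mock library, and the spread inside each group was wide. Its log2 fold change was 1.13 (SE 0.32, limma adjusted p = 0.253). Plxna2, its paralog (chr1:194618218-194816869), had 467.8, 486.1 and 462.6 in Mock against 1430, 691.9 and 783.2 in HIF-1α-KD cells. The Mock libraries lay within a 1.05-fold range while HIF-1α-KD library 1 stood well above the other knockdown libraries. Plxna2 had a log2 fold change of 0.96 (SE 0.26, limma adjusted p = 0.245), and 0.64 without that library.

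Plxnd1, known as a vascular plexin (chr6:115954811-115995005), had 902.4, 2012 and 1767 in Mock against 2854, 2968 and 3254 in HIF-1α-KD cells. The knockdown libraries agreed closely, and Mock library 1 was the lowest of all 6. In limma, the log2 fold change was 1.03 (SE 0.28, limma adjusted p = 0.238), and 0.68 without Mock library 1. Plxnb1, the receptor of Sema4d (chr9:109095389-109119917), had 336.1, 552.2 and 425.2 in Mock against 1328, 613.9 and 626.1 in HIF-1α-KD cells. HIF-1α-KD library 1 was far above the rest, and the other knockdown libraries also lay above every Mock library. Plxnb1 had a log2 fold change of 0.90 (SE 0.32, limma adjusted p = 0.329), it was 0.53 without that library, and the criterion was also lost without Mock library 1 or Mock library 3.

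The 3 remaining plexins did not meet the criterion. Plxnb2, the most abundant, had 5206, 9261 and 9346 in Mock against 11280, 10250 and 8545 in HIF-1α-KD cells, so its groups overlapped (log2 fold change 0.38, SE 0.24, limma adjusted p = 0.548). The log2 fold change of Plxnb2 was between 0.098, without Mock library 1, and 0.52, without Mock library 3. Plxna3 and Plxnc1 had log2 fold changes of 0.20 and 0.13.

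Both neuropilins, which also bind VEGF family ligands, had positive values below 1.5-fold. Nrp2 (chr1:62703285-62818695) had 5260, 6243 and 7940 in Mock against 11140, 8425 and 7492 in HIF-1α-KD cells. Its groups overlapped, since Mock library 3 exceeded HIF-1α-KD library 3. This gave a log2 fold change of 0.48 (SE 0.20, limma adjusted p = 0.384). Nrp2 met the criterion without HIF-1α-KD library 3 (0.60) or Mock library 3 (0.63), and its log2 fold change was 0.31 without HIF-1α-KD library 1 and 0.30 with the length correction. Nrp1 had a log2 fold change of 0.36 (SE 0.19, limma adjusted p = 0.475).

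Secreted class-3 semaphorins are the ligands that use neuropilins. Of 5 tested genes, 3 were positive with a median log2 fold change of 0.35 over the 5 (0.21 without HIF-1α-KD library 1), and 1 met the criterion, downward. Sema3f (chr9:107681500-107710475), which binds Nrp2 and is known as a repellent for vessels and tumor cells, had 252.4, 260.3 and 362.4 in Mock against 120.6, 146.3 and 146.7 in HIF-1α-KD cells. The groups were clearly apart, with the highest knockdown library well under the lowest Mock library. Its log2 fold change was -1.06 (SE 0.23, limma adjusted p = 0.157), the smallest p of any guidance gene, and it lay between -1.16 and -0.90 with any 1 library left out. By DESeq2 its adjusted p was 0.00791.

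Sema3a, the most abundant class-3 semaphorin and a ligand of Nrp1, had 1454, 1254 and 721.1 in Mock against 2524, 1266 and 1576 in HIF-1α-KD cells. The groups overlapped, and the log2 fold change was 0.65 (SE 0.32, limma adjusted p = 0.443). Sema3a missed the criterion of p and fold here but met it with DESeq2, with a replicate block (adjusted p = 0.404), and without HIF-1α-KD library 2 (0.86) or Mock library 1 (0.85), while its log2 fold change was 0.34 without Mock library 3 and 0.37 without HIF-1α-KD library 1. Sema3c (0.90), Sema3b (0.35) and Sema3g (-0.34) also had overlapping groups.

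Class-4 semaphorins are membrane-bound ligands of B-type plexins, and 3 of the 4 tested lay wholly higher in the knockdown libraries, as 10.4% of all genes did. Sema4a (chr3:88435959-88461182), known in T-cell costimulation, had 48.0, 62.2 and 45.9 in Mock against 73.2, 110.3 and 112.0 in HIF-1α-KD cells. Sema4a had a log2 fold change of 0.89 (SE 0.30, limma adjusted p = 0.312), and it lost the criterion when either HIF-1α-KD library 2 or 3, or Mock library 3, was left out. Sema4c, a ligand of Plxnb2, had 546.6, 791.4 and 664.4 in Mock against 985.3, 1083 and 802.8 in HIF-1α-KD cells. The nearest libraries of the 2 groups were almost level, and the log2 fold change was 0.52 (SE 0.19, limma adjusted p = 0.339). Sema4b had 476.4, 608.6 and 594.3 in Mock against 907.3, 697.9 and 667.7 in HIF-1α-KD cells, with a log2 fold change of 0.43 (SE 0.19, limma adjusted p = 0.392). For both Sema4b and Sema4c the change was under 1.5-fold, but Sema4c met the criterion without HIF-1α-KD library 3 (0.65) or Mock library 2 (0.66).

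Sema4d, the ligand of Plxnb1, had 33.2, 32.5 and 39.9 in Mock against 14.5, 20.4 and 125.9 in HIF-1α-KD cells, so the knockdown libraries lay on both sides of the Mock libraries. The library with the high value, HIF-1α-KD library 3, also had the highest sum over the 12 leukocyte markers. It was 400 FPKM there, of which Lyz2 gave 294.6 FPKM, and 77.9 to 127 FPKM in the other libraries. The defining gene Ptprc had 222.9 normalized counts there against 40.2 to 118.4. The list did not rise as a whole: Cd79a was lowest in that library (119.0, against 159.4 to 315.8 in Mock), and Cd3e and Ly6g had 0 there. Leukocytes are a known source of Sema4d, and their part in its level was not tested. The log2 fold change of Sema4d was -0.05 (SE 0.72) and -0.99 (limma adjusted p = 0.432) without that library, when it met the criterion downward.

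Sema6a, a transmembrane semaphorin read by A-type plexins (chr18:47235598-47368870), had the largest log2 fold change of the tested members, at a very low level. It had 2.46, 0.957 and 15.7 in Mock against 32.2, 45.6 and 46.2 in HIF-1α-KD cells, which is at most 0.571 FPKM. Only 1 Mock library but all 3 knockdown libraries reached the read level of the filter, so Sema6a could enter the test only through the group in which it was high. Its log2 fold change was 3.11 (SE 0.78, limma adjusted p = 0.219). It was 2.46 without Mock library 2, 4.004 without Mock library 3 and 1.74 with a pseudocount of 10. Of the other members of these classes, Sema6c, with 48.0, 68.9 and 51.9 in Mock against 37.8, 48.0 and 38.1 in HIF-1α-KD cells, had groups that just missed each other (log2 fold change -0.43, limma adjusted p = 0.615), and Sema6b was at -0.45. Sema7a, a membrane-anchored semaphorin that binds Plxnc1 and integrins, varied in both groups, with 256.1, 839.3 and 1329 in Mock against 491.4, 2427 and 1119 in HIF-1α-KD cells (log2 fold change 0.74, limma adjusted p = 0.682). Leaving out 1 library took the log2 fold change of Sema7a to between 0.060, without Mock library 1, and 1.32, without HIF-1α-KD library 1.

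Netrin receptors of the UNC5 family, known as dependence receptors that signal death without ligand, had 2 tested members. Unc5b (chr10:60762593-60831581) had 1330, 3246 and 3123 in Mock against 6533, 5186 and 3722 in HIF-1α-KD cells. The groups did not overlap, Mock library 1 was again the lowest and HIF-1α-KD library 1 the highest. The log2 fold change was 1.07 (SE 0.35, limma adjusted p = 0.294), and 0.66 without Mock library 1. Unc5b and Unc5c together summed to 10.9, 23.9 and 22.4 FPKM in Mock and 45.3, 44.9 and 34.2 FPKM in HIF-1α-KD libraries, with the untested Unc5a and Unc5d included.

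Unc5c differed more inside the knockdown group than between groups. It had 205.6, 71.8 and 147.4 in Mock against 22.5, 708.6 and 680.4 in HIF-1α-KD cells, a 31.5-fold range among the knockdown libraries. Without HIF-1α-KD library 1 its log2 fold change went from 0.78 to 2.41 (limma adjusted p = 0.0523), and it then met the criterion. The tested ROBO receptors also varied most inside the knockdown group. Robo2 had 98.5, 213.4 and 151.0 in Mock against 4.83, 194.2 and 195.2 in HIF-1α-KD cells, and Robo1 had 126.8, 368.4 and 334.6 in Mock against 52.3, 414.9 and 690.8 in HIF-1α-KD cells. In all 3 genes HIF-1α-KD library 1, the library with the lowest Hif1a, was the lowest of the 6 libraries, and a relation between the Hif1a level and these genes was not tested. The log2 fold change of Robo1 was -0.02 with all libraries and 1.09 (limma adjusted p = 0.389) without that one, and that of Robo2 was -1.29 (SE 1.19) with all and 0.40 without.

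Slit2, the ligand of these receptors (chr5:47983138-48307733), had 1652, 1868 and 2699 in Mock against 3537, 3243 and 3484 in HIF-1α-KD cells. The knockdown libraries were tightly grouped above every Mock library. Its log2 fold change of 0.75 (SE 0.19, limma adjusted p = 0.219) stayed between 0.61 and 0.96 with any 1 library left out. Slit2 was the only SLIT gene with enough reads to test.

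Ephrins and Eph receptors showed no shared direction. Of the 7 tested ephrins 4 were positive and 1 met the criterion. Efnb1 (chrX:99136130-99148991), a transmembrane ephrin that itself signals into the cell, had 80.0, 110.1 and 100.3 in Mock against 232.4, 183.5 and 127.1 in HIF-1α-KD cells. All knockdown libraries were above the Mock libraries, and they spread widely. On the log2 scale its fold change was 0.87 (SE 0.29, limma adjusted p = 0.303), and the criterion was lost without HIF-1α-KD library 1. Efnb2, the more abundant B-type ephrin, had 1767, 1674 and 2273 in Mock against 1459, 1875 and 2036 in HIF-1α-KD cells (log2 fold change -0.09, 95% interval -0.51 to 0.33).

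Among the glycolipid-anchored ephrin-A ligands, Efna1 (chr3:89271733-89281142) had 679.5, 592.4 and 678.9 in Mock against 423.9, 456.8 and 500.2 in HIF-1α-KD cells. Efna1 was lower in every knockdown library, by less than 1.5-fold (log2 fold change -0.50, SE 0.16, limma adjusted p = 0.296). Efna3, its neighbor on chromosome 3, was higher in every knockdown library, with 55.4, 64.1 and 59.2 in Mock against 74.8, 100.7 and 75.1 in HIF-1α-KD cells (log2 fold change 0.47, SE 0.28, limma adjusted p = 0.526). Efna4 (0.23), Efna5 (0.20) and Efna2 (-0.29) had overlapping groups.

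All 4 tested EphB receptors had positive log2 fold changes (median 0.51), also under every alternative setting, with a median between 0.24 (without Mock library 1) and 0.72 (without Mock library 2) when 1 library was left out. All 4 tested EphA receptors had negative ones (median -0.14, between -0.52 without Mock library 3 and -0.01 without HIF-1α-KD library 1), but of these only Epha7 was negative under every setting: Epha10 turned positive with library size scaling, and Epha1, Epha2 or Epha10 with single libraries left out. In each group 1 receptor met the criterion. Ephb3 (chr16:21204755-21223305), a receptor of B-type ephrins known for positioning cells in the intestinal crypt, had 121.9, 239.2 and 149.8 in Mock against 330.6, 241.0 and 269.1 in HIF-1α-KD cells. Its nearest libraries were almost level, the log2 fold change was 0.76 (SE 0.28, limma adjusted p = 0.339), and the criterion was lost when Mock library 1, Mock library 3 or HIF-1α-KD library 1 was left out. Ephb4, the receptor of Efnb2, was at 0.32 (SE 0.19; 0.11 without Mock library 1), Ephb2 at 0.62 and Ephb6 at 0.39. Epha7 (chr4:28813131-28967499) had 38.2, 91.9 and 37.5 in Mock against 9.65, 7.19 and 15.0 in HIF-1α-KD cells. It was low in both groups, at most 1.29 FPKM, and reached the read level of the filter in all 3 Mock libraries but only 1 knockdown library, so it entered the test through the group in which it was high. For Epha7 the log2 fold change was -2.21 (SE 0.51, limma adjusted p = 0.183). Epha2, by far the most abundant EphA receptor and a receptor of Efna1, had 1204, 1771 and 3121 in Mock against 1745, 1392 and 2225 in HIF-1α-KD cells (log2 fold change -0.10, 95% interval -0.84 to 0.64).

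**Figure D3:**
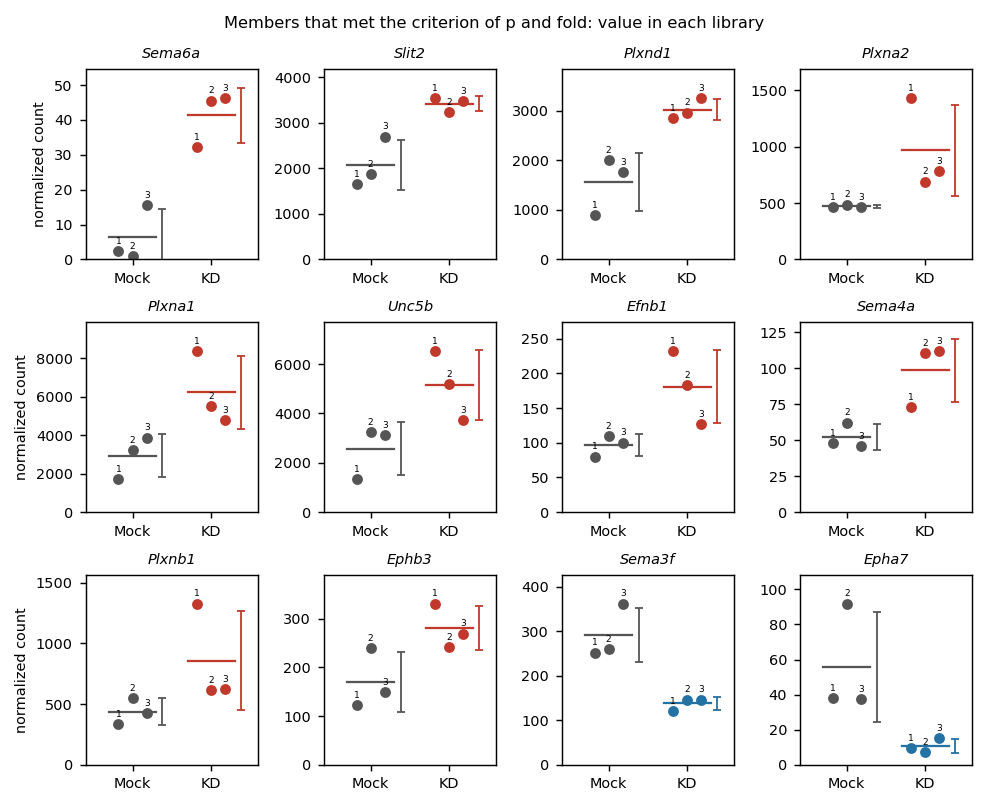
Normalized count (vertical axis, from 0) in each library for the 12 guidance genes that met the criterion of p and fold, with library numbers beside the points, a line at the group mean and a bar of 1 standard deviation on each side of it (3 libraries per group). None of the 12 genes has overlapping groups; HIF-1α-KD library 1 stands apart for Plxna2 (1430) and Plxnb1 (1328).

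The differences were carried unevenly by the libraries. Mock library 1 was the lowest of the 6 libraries for 22 of the 43 tested members (51.2%) and for 27.1% of all genes, and HIF-1α-KD library 1 was the highest for 17 members (39.5%) and for 23.2% of all genes. Of the 10 members that met the criterion upward, 7 were lowest in Mock library 1 and 7 highest in HIF-1α-KD library 1. Their groups did not overlap, so the lowest had to be a Mock and the highest a knockdown library. The same count was not made over all genes that met the criterion, so these 2 counts have no background. The median member deviated from its mean over the 6 libraries by -0.49 on the log2 scale in Mock library 1, by -0.04 and -0.07 in the other Mock libraries, and by 0.12, 0.23 and 0.10 in the HIF-1α-KD libraries. Without Mock library 1, the criterion was met by 9 members upward (20.9%) and 3 downward, against 2.01% and 2.64% of all genes, and the median log2 fold change of the members was 0.25 instead of 0.38.

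**Figure D4:**
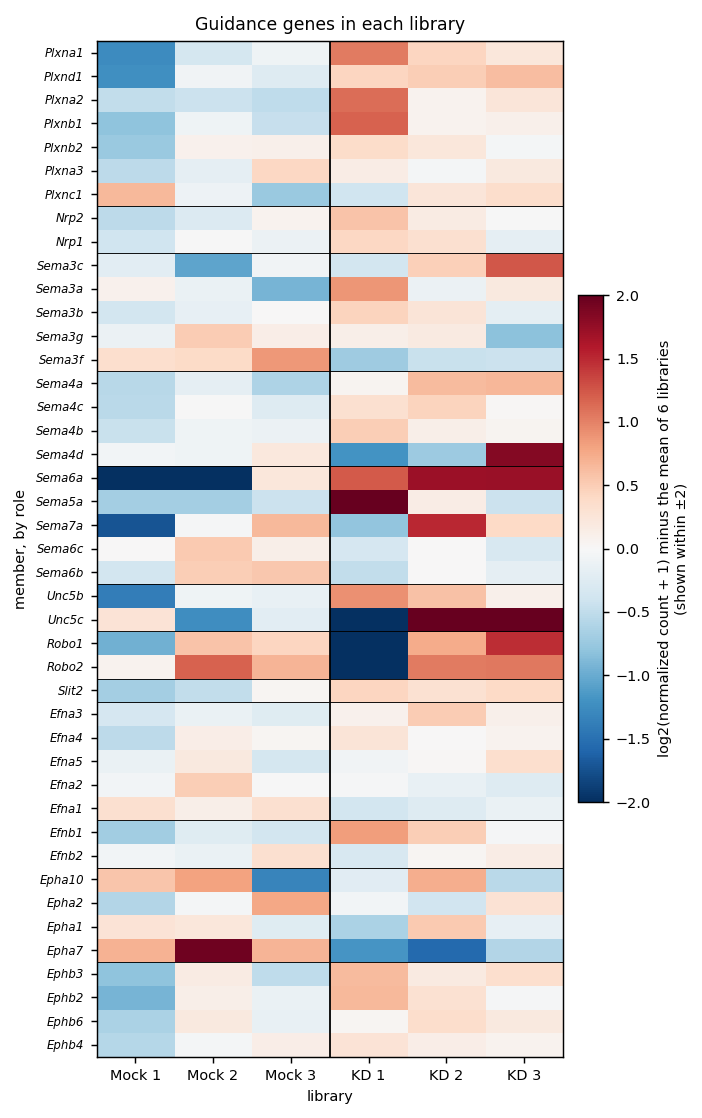
Deviation of each tested guidance gene (rows, by role) from its mean over the 6 libraries (columns), as log2(normalized count + 1), with colors limited to 2 in either direction. Mock library 1 is blue for most rows, and HIF-1α-KD library 1 is the darkest red for several plexins but blue for Unc5c, Robo1 and Robo2.

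Plxna1, Plxna2, Plxnd1, Slit2, Unc5b and Sema3f met the criterion with each of the 6 libraries left out in turn. Sema6a and Epha7 did so too, but they entered the test only through the group in which they were high. Efnb1, Sema4a, Plxnb1 and Ephb3 lost it without at least 1 library. Under the 12 other settings of test, scaling, filter, pseudocount, block and correction, none of these 12 genes lost the criterion.

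**Figure D5:**
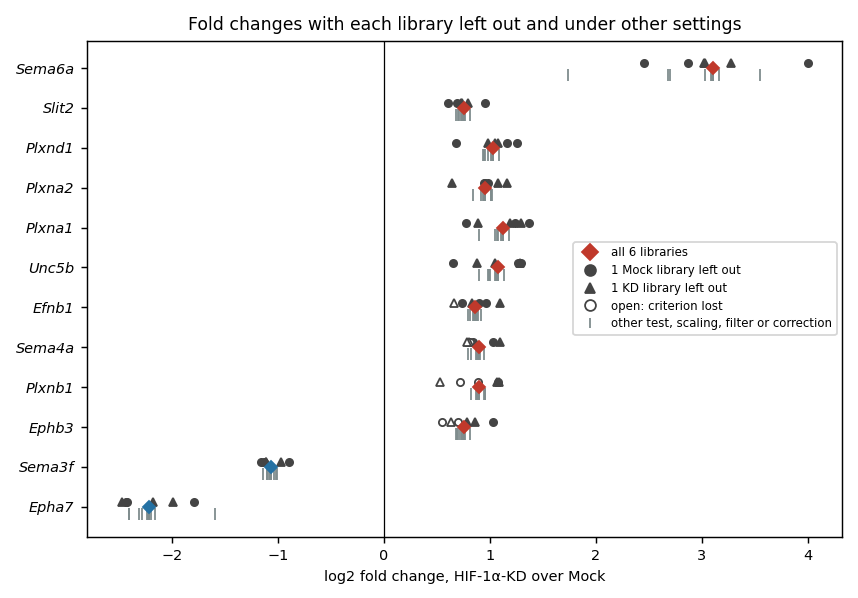
Log2 fold change (horizontal axis) of the 12 guidance genes that met the criterion: diamonds use all 6 libraries, circles and triangles leave out 1 Mock or 1 HIF-1α-KD library, open symbols mark a lost criterion and short lines the other settings. Slit2 (0.61 to 0.96) and Sema3f (-1.16 to -0.90) move little, whereas Plxnb1 goes down to 0.53.

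Markers of other cells that a GFP gate could let through were read beside these values. Pericytes and smooth muscle express several plexins and ephrins, and 3 of the 6 tested markers of that list met the criterion upward, Cspg4 at 1.42, Rgs5 at 1.15 and Pdgfrb at 0.59 on the log2 scale, as 4.02% of all genes did. The 9 genes of the list summed to 23.5 to 50.7 FPKM in Mock and 56.0 to 63.3 FPKM in HIF-1α-KD libraries, lowest in Mock library 1, as for the plexins. Of these 9 genes, 5 averaged under 1 FPKM, Rgs5 and Notch3 (log2 fold change 0.04) among them, and Pdgfrb at 31.9 FPKM made up most of the sum. Cspg4, Rgs5 and Pdgfrb were each lowest in Mock library 1. The groups of Pdgfrb overlapped, with 2428, 5025 and 2918 normalized counts in Mock against 5679, 4706 and 4544 in HIF-1α-KD cells. The defining smooth muscle gene Myh11 and the pericyte genes Kcnj8 and Abcc9 had too few reads to test, and Des (0.39) and Acta2 (0.33) had overlapping groups. The part of this list in the values of Plxna1, Plxnd1 and Unc5b was not tested. Endothelial markers, which matter for Plxnd1 and Unc5b, were scarce: 7 of 9 averaged under 1 FPKM, and their sum was 9.61 to 11.6 FPKM in Mock and 8.98 to 10.3 FPKM in HIF-1α-KD libraries. Of the 4 tested, Cdh5 met the criterion downward (-0.84), and Tek (1.26), Pecam1 (0.26) and Egfl7 (0.12) were positive with overlapping groups. The part of vessel cells in the values of Plxnd1 and Unc5b was not tested. Fibroblast markers summed to 581 to 1067 FPKM in Mock and 482 to 792 FPKM in HIF-1α-KD libraries. Of 10 markers of enteric glia and neurons, 8 averaged under 1 FPKM and 3 had no read. Msln, 1 of 4 mesothelial markers, met the criterion downward (-2.27) while the other 3 averaged under 1 FPKM.

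Genes that work with the guidance families were followed in 5 fixed lists of ligands, co-receptors and effectors, in which 7 of 97 tested genes (7.22%) met the criterion upward and 2 (2.06%) downward. With 4.02% and 3.46% of all genes meeting it, and 52.7% of all genes positive, the values below are given as a description of single genes. In the netrin list, 9 of 10 tested genes were positive and 2 met the criterion, Flrt2 (an UNC5 ligand) at 0.94 and Ntng2 at 0.89, and the netrin receptor Neo1 was at 0.50 (limma adjusted p = 0.339). Ntn1, the main secreted netrin, had 23.2 FPKM and a log2 fold change of 0.36 (SE 0.28), and Dcc had no read in any library. Of 16 tested co-receptors and other ligands of plexins and neuropilins, 2 met the criterion upward, Vegfc (1.48) and the VEGF receptor Flt1 (1.16). Vegfa, a ligand of neuropilins and a classic HIF-1 target, was lower in every knockdown library, with 2232, 2102 and 2240 in Mock against 1649, 1752 and 1562 in HIF-1α-KD cells (log2 fold change -0.41, limma adjusted p = 0.294).

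None of the 27 tested cytoplasmic effectors of plexins met the criterion. Of these 27 genes 16 were positive, with a median log2 fold change of 0.04, and 1 gene in each direction had an unadjusted p under 0.05. The smallest p in that list belonged to the GTPase gene Rras2 (-0.52, limma adjusted p = 0.347). Of 26 tested genes in Eph and ephrin signaling, 2 met it upward, Itsn1 (0.62) and Grip1 (1.06), both binding partners of Eph or ephrin proteins. Among 18 tested genes around ROBO and SLIT, Arhgap39 (0.64) met it upward, and Srgap3 (-2.17), a ROBO effector, and Sdc4 met it downward. Sdc4, a heparan sulfate proteoglycan of a kind that binds SLIT proteins, had 6778, 5891 and 7705 in Mock against 3662, 3336 and 3796 in HIF-1α-KD cells. Sdc4 fell by 0.91 on the log2 scale (SE 0.15, limma adjusted p = 0.0447), the only gene of the 5 lists at an adjusted p under 0.05, and its adjusted p was between 0.0828 and 0.196 with any 1 library left out and 0.109 with a replicate block. It was also past 0.05 with edgeR (0.0501), library size scaling, the length correction and limma without trend (0.170). Ntng2, Flt1 and Arhgap39 were named after their values were seen.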

How the data were processed

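Sorted MC-38GFP tumor cells gave 3 Mock and 3 HIF-1α-KD libraries, grouped by the knockdown in their labels. Reads were aligned by the authors with STAR and counted per gene, and the authors deposited normalized counts, a signal in which each gene's reads are divided by 1 factor per library, next to FPKM values per deposited transcript width. The methods name DESeq2 and the submitters' notes edgeR. The labels name GRCm38 and the methods a human assembly, while the deposited identifiers are mouse. The deposited log2 ratio, p-value and false discovery rate hold the authors' comparison and were not used. The deposited GC fraction and width served for corrections. Multiplying by the factors gave back whole reads for 100% of values up to 300 reads (tolerance 0.15).

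Genes were filtered with filterByExpr of edgeR 4.0.16 (minimum count of 10, by group) and compared by limma 3.58.1 (mean-variance trend, two-sided) as log2(normalized count + 1), with Benjamini-Hochberg adjustment over 12014 genes. Other settings tried were edgeR quasi-likelihood and DESeq2 1.42.0 tests on the recovered reads, 3 scalings, no filter, pseudocounts of 0.1 and 10, limma without trend, a replicate block, loess corrections (span of 0.5) for length and GC, and leaving out each library. FPKM per longest GENCODE transcript was added after seeing the data. The tests were tested on simulated data. R 4.3.3 and Python 3.11.15 were used. Positions come from the GENCODE annotation of GRCm38, and promoters from RefSeq.

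The members and lists were chosen with earlier results of these data known. Genes named are members with an unadjusted p under 0.05 or without overlap of the groups, the member with the highest FPKM in each role, the genes of each list at an adjusted p under 0.05 or else with the smallest p, and Hif1a. Robo2, Unc5c, Sema4d and Sema5a were added for their spread after their values were seen, and other members are given by value for completeness. Mical3 appears on more than 1 row of the table, and the row with the most reads was used. Reads shared between paralogs may be split by the authors' counting. The naming rule also took a gene of the plexin effector list, besides Rras2, that is not reported here.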

Additional observations from a re-analysis of the deposited data

How the results depend on the processing

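The 10 guidance genes higher and 2 lower by p and fold became 8 to 13 and 2 or 3 over all alternatives. Of all genes, 2.01% to 5.62% were higher and 2.64% to 4.78% lower under these alternatives. The median log2 fold change of the members stayed between 0.20 (no filter, 61 members) and 0.49. At an adjusted p of 0.05 the count of 0 and 0 held under every alternative except DESeq2, with 4 higher (Plxna1, Plxna2, Plxnd1, Slit2) and 2 lower (Sema3f, Epha7), where 96 and 187 of all 12014 genes were called. With values centered within each group, same-numbered libraries correlated at -0.139, -0.123 and 0.0228, and differently numbered ones at -0.0716 to 0.162. No pairing by replicate number was seen, but centered values of 3 libraries per group cannot exclude it. With a replicate block, 12 members were higher and 2 lower by p and fold, against 3.81% and 3.35% of all genes. At an adjusted p of 0.05 the block left 0 members and 0 of all genes in either direction. Scaling to library size alone moved the median of all genes to 0.08. The 7 pathway genes higher by p and fold became 2 to 12 of 97 when 1 library was left out, against 2.01% to 5.62% of all genes.

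Signs turned for a few members near 0 or with wide spread, and the cause was not tested. Robo1 (-0.02) became 0.47 with DESeq2, 0.45 with edgeR, 0.040 with library size scaling, 0.019 with a pseudocount of 10, and ranged from -0.75 to 1.09 with 1 library left out. Sema4d (-0.05) became 0.59 with DESeq2, 0.58 with edgeR, 0.0018 with library size scaling and 0.047 with a pseudocount of 10, and ranged from -0.99 to 0.53. With 1 library left out, Robo2 ranged from -2.13 to 0.40, Unc5c from -0.046 to 2.41, Efnb2 from -0.19 to 0.050 and Epha2 from -0.42 to 0.27. Where a group was left with fewer libraries, its spread was pooled by limma. At these depths 21 members had too few reads to be tested, 3 of them none.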

Other observations

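Sema5a, a transmembrane semaphorin that binds Plxnb3, was the member whose values differed most between HIF-1α-KD library 1 and the rest on the high side. It had 401.3, 401.9 and 480.8 normalized counts in Mock against 2727, 718.2 and 478.2 in HIF-1α-KD cells, so the Mock libraries were level, and HIF-1α-KD library 3 fell among them. The log2 fold change was 1.20 (SE 0.54, limma adjusted p = 0.398), it was 0.46 without HIF-1α-KD library 1, and it was 1.59 with edgeR (adjusted p = 0.322). Sema5a thus missed the criterion of p and fold, and it met it with edgeR, DESeq2, library size scaling, no filter or a replicate block, and without HIF-1α-KD library 2 or library 3. Over the 43 tested members, the median distance between the lowest and the highest library of a group was 0.71 on the log2 scale in Mock and 0.61 in HIF-1α-KD cells. Robo2, Unc5c, Robo1, Sema4d and Sema5a had distances of 5.07, 4.92, 3.70, 3.04 and 2.51 in HIF-1α-KD cells. In the first 3 of these HIF-1α-KD library 1 was the lowest, in Sema4d library 1 was also the lowest and library 3 the highest, and in Sema5a library 1 was the highest.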
